A study of Mus musculus with 2 samples.

Results

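Ccl2, Ccl7, Ccl12 and Ccl8, the genes of the mouse monocyte chemoattractant chemokines, and Ccr2, the monocyte receptor gene of this system, were followed through MC38 tumors with and without the STING agonist MSA-2. These 5 genes were taken by symbol from the 32285 features of the count tables, and each symbol matched a single row. The study placed cells of MC38, a murine colon adenocarcinoma line, under the skin of C57BL/6 mice of both sexes and profiled the tumors by droplet single-cell RNA sequencing of transcript 3′ ends. One library came from tumors labelled untreated, for which the series record names saline with DMSO as the vehicle, and the other from tumors that received MSA-2 by intratumoral injection, with 3 doses given every 3 days. The series record states that 3 mice or samples were pooled. With 1 library per condition, the spread between animals could not be measured and no p-values are given. Both groups carried the same tumor line in unmodified hosts and the mice were young adults. The methods call the profiled cells sorted and name no gate.

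Chemokines are small secreted proteins that direct the movement of leukocytes. The monocyte chemoattractant proteins bind CCR2, a receptor coupled to inhibitory G proteins, and draw Ly6C-high monocytes out of the bone marrow and into inflamed tissue. CCL2 is the best known of these ligands, CCL7 shares the receptor and also engages CCR1 and CCR3, CCL12 is a mouse CCR2 ligand, and mouse CCL8 acts mainly through CCR8. In tumors, CCR2-bearing monocytes mature into macrophages, during which Ccr2 transcription declines.

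The ligand genes lie together on chromosome 11 of GRCm38, all on the plus strand, with Ccl2 (ENSMUSG00000035385) at chr11:82035571-82037453, Ccl7 (ENSMUSG00000035373) at chr11:82045712-82047525, Ccl12 (ENSMUSG00000035352) at chr11:82101845-82103400 and Ccl8 (ENSMUSG00000009185) at chr11:82115185-82116799. This stretch of 81.2 kb holds 5 protein-coding genes in GENCODE M21, the fifth being the eosinophil chemokine gene Ccl11 between Ccl7 and Ccl12. Ccr2 (ENSMUSG00000049103) spans chr9:124101950-124113557 on the plus strand, after the receptor gene Ccr3. No member overlaps another gene on its own strand. Ccl2 overlaps Gm17268 on the other strand. The sources used here do not say whether reads were assigned by strand, so the counts of these overlapping genes are uncertain.

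Promoter windows from RefSeq on GRCm38.p6 matched 3 of the 5 genes, Ccl12, Ccl8 and Ccr2. The 250 bases before the transcription start are shown for Ccl12 and Ccl8, neighbors on 1 strand whose transcripts were distributed differently over the cell classes. The Ccr2 window overlaps a first exon of another Ccr2 transcript and is not shown. Capitals mark every match, on either strand, to the motifs searched, which were the NF-κB consensus of 10 positions, the IRF core GAAANNGAA, the C/EBP core TTGCNNAA, the AP-1 core TGANTCA, the PU.1 core GAGGAAGT and the TATA box TATAAA.
Ccl12, chr11:82101595-82101844: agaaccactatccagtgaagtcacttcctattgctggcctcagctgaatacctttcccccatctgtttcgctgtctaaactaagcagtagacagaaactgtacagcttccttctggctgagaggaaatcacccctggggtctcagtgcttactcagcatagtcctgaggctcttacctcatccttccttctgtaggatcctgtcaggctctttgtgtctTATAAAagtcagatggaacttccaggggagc
Ccl8, chr11:82114935-82115184: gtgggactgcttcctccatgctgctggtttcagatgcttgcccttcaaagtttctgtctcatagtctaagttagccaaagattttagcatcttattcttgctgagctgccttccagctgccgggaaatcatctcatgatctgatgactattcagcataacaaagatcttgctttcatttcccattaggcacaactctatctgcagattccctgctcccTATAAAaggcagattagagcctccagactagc
Ccl12 held the TATA box letters at positions -31 to -26 from the start and Ccl8 held them at -32 to -27, letters that 12.4% of 32851 promoter windows contain. The IRF core occurred in 7.13% of all windows, the NF-κB consensus in 3.90%, the C/EBP core in 9.56%, the AP-1 core in 6.75% and the PU.1 core in 2.44%, and none of these 5 motifs was in the windows shown, which says nothing of the factors.

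After filtering, 13334 untreated and 13393 MSA-2 cells remained, with medians of 8298.5 and 9271 UMIs, and 39 cell barcodes were shared by the kept cells of the libraries. Cells were placed in classes from the summed level of marker genes that exclude the 5 genes studied, and 9 classes held at least 50 cells in both libraries. Outside every named class were 155 untreated and 432 MSA-2 cells with mixed markers, 339 and 403 other immune cells, and 234 and 302 further cells. Together they held 1.61% of untreated and 9.01% of MSA-2 Ccl12 UMIs, and 6.59% and 9.33% of Ccr2 UMIs. Tumor cells made up 6697 untreated and 7194 MSA-2 cells. Macrophages, gated on C1q genes, Apoe and related markers, numbered 3227 and 652, and resident-like macrophages, which add Folr2, Lyve1 and Cd163, numbered 62 and 153. Ly6c2 monocytes, gated on Ly6c2, F13a1, Plac8, Chil3 and others without the macrophage list, numbered 357 and 777, and monocyte-macrophages, which pass both lists, 332 and 207. Fibroblasts numbered 221 and 588, endothelial cells 61 and 81, T cells 1161 and 141, NK cells 193 and 107. Neutrophils numbered 31 and 2319. The labels call the samples tumor cells, whereas marker genes placed many cells in immune classes.

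Levels are given as the UMIs of a gene per 1000000 UMIs of a class (CPM), summed over its cells, with 95% intervals (exact Poisson for levels, conditional binomial for ratios, Clopper-Pearson for shares) that cover counting error only. Cells varied more than that: at equal depth the variance of Ccl2 over its mean was 4.99 in MSA-2 Ly6c2 monocytes and 8.64 in MSA-2 tumor cells. Droplets also catch free RNA. T cells, which do not ordinarily express the 4 ligands, served as the measured reference for them, and tumor cells served as the reference for Ccr2. In T cells Ccl2 stood at 171 CPM in the untreated and 367 CPM in the MSA-2 library, Ccl7 at 93.9 and 218 CPM, Ccl12 at 13.9 and 4.33 CPM, and Ccl8 at 27.8 and 11.6 CPM. Class levels near these are read as background. The T cell median depth was 3164 and 3930 UMIs, against 19843 and 19571.5 UMIs in tumor cells.

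Over all cells, Ccl2 stood at 1255 CPM in the untreated and 2471 CPM in the MSA-2 library, a log2 ratio of 0.98 (95% interval 0.97 to 0.98). Ccl7 rose further, from 568 to 1581 CPM (log2 ratio 1.48, 1.47 to 1.49). Ccl12 was lower, at 78.7 and 46.9 CPM (-0.75, -0.79 to -0.71), and Ccl8 was nearly level, at 96.8 and 104 CPM (0.10, 0.07 to 0.13). Ccr2 fell 3.46-fold, from 16.1 to 4.64 CPM (-1.79, -1.90 to -1.68). By a rule of at least a 2-fold difference on log2(CPM + 1) among genes with at least 10 UMIs, 2.77% of the 21047 genes tested were higher and 2.72% lower in the MSA-2 library, and of the 5 genes Ccl7 was called higher and Ccr2 lower. With the mean of per-cell CPM in place of the sum, the log2 ratio of Ccl7 was 0.78, below the 2-fold rule, and that of Ccl8 was -0.31. With 10 CPM added in place of 1, the difference of Ccr2 was -0.83 and it was not called.

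**Figure D1:**
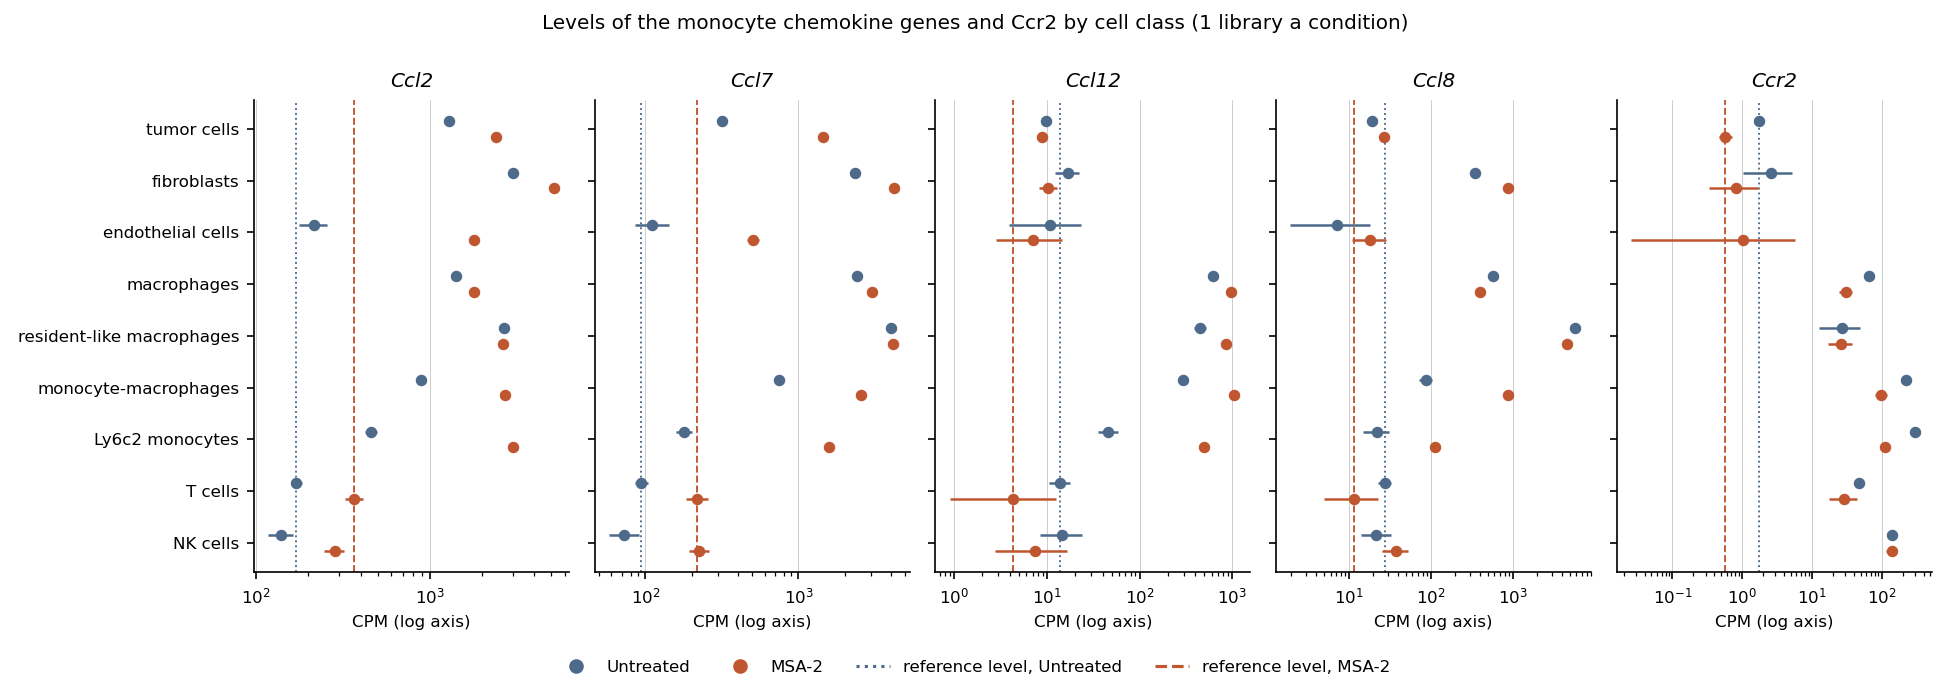
Levels of each gene (CPM, log axis) in the 9 classes with at least 50 cells in both libraries, untreated in blue and MSA-2 in orange, with 95% counting intervals. Vertical lines mark the reference level of each library, T cells for the ligands and tumor cells for Ccr2. In Ly6c2 monocytes the ligands stood far to the right in the MSA-2 library, while Ccr2 stood to the left.

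Ccl2, the principal CCR2 ligand, was present in the tumor cells themselves. Tumor cells held 1286 CPM of Ccl2 in the untreated and 2421 CPM in the MSA-2 library (log2 ratio 0.91, 0.91 to 0.92). At an equal depth of 1500 UMIs per cell, 63.8% of untreated and 77.5% of MSA-2 tumor cells carried at least 1 Ccl2 UMI, against 22.7% and 42.1% of T cells, and without thinning the tumor cell shares were 96.3% and 98.6%. Tumor cells held 81.9% of Ccl2 UMIs in the untreated library and 83.3% in the MSA-2 library, close to their 80.0% and 85.0% of the UMIs of all genes. Among the 9 classes the highest level of Ccl2 was in fibroblasts, at 3023 and 5191 CPM (0.78, 0.75 to 0.81). The largest Ccl2 ratio of the 9 classes was in endothelial cells, which line the vessels that monocytes cross, where the level was near the T cell reference at 214 CPM in the untreated library and reached 1797 CPM with MSA-2 (3.07, 2.80 to 3.35). Over these endothelial cells the endothelial list stood at 8900 and 5676 CPM, the MC38 tumor list at 3275 and 3524 CPM, the fibroblast list at 334 and 852 CPM and the neutrophil list at 19.6 and 575 CPM, whose part was not tested.

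In the myeloid classes the Ccl2 ratio was smaller from class to class in the order of the gates, from monocytes to resident-like macrophages. Ly6c2 monocytes held 460 CPM in the untreated and 3027 CPM in the MSA-2 library (2.72, 2.60 to 2.83). These cells differed between libraries in clusters built without the 5 genes. In the untreated library 76.2% lay in a cluster counted as macrophages and 16.8% in one counted as dendritic cells. With MSA-2, 78.1% lay in a cluster counted as monocytes. The part of this difference in the Ly6c2 monocyte ratios was not tested. Monocyte-macrophages held 894 and 2698 CPM (1.59), and macrophages 1407 and 1802 CPM (0.36, 0.32 to 0.40). Resident-like macrophages did not differ beyond counting error, at 2685 and 2626 CPM (-0.03, -0.14 to 0.07). The place of the monocytes in this order changed: Ly6c2 monocytes had the lowest Ccl2 level of these 4 classes in the untreated library and the highest in the MSA-2 library.

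Ccl7, the second CCR2 ligand, was higher with MSA-2 in tumor cells by a larger ratio than Ccl2. Tumor cells held 317 CPM in the untreated and 1454 CPM in the MSA-2 library (2.20, 2.18 to 2.21), and the share of tumor cells with a Ccl7 UMI at equal depth was 30.2% and 63.4%, against 12.8% and 27.8% of T cells. Ccl7 was among the 2.56% of genes called higher in tumor cells, where 1.45% were lower. In untreated tumors the UMIs of Ccl7 were divided between tumor cells (44.7%) and macrophages (44.3%). In the MSA-2 library tumor cells held 78.2%, fibroblasts 11.8% and macrophages 3.33%. Macrophages were also fewer, and their own level was 2408 and 3046 CPM (0.34, 0.31 to 0.37).

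The balance of Ccl7 to Ccl2 differed between classes and, in some of them, between libraries. Tumor cells had 0.247 Ccl7 UMIs per Ccl2 UMI in the untreated library and 0.601 in the MSA-2 library. Macrophages had 1.71 and 1.69, and resident-like macrophages 1517 Ccl7 against 1008 Ccl2 UMIs in the untreated library and a ratio of 1.59 in the MSA-2 library. Ly6c2 monocytes had 0.389 and 0.524, with intervals that did not overlap between libraries. Endothelial cells had 0.517 and 0.282, but their untreated levels of both genes were near the T cell reference, where the ratio was 0.550, so no change of balance is read from this class. Ccl7 was thus the more abundant transcript of the pair in macrophages under both conditions. In fibroblasts Ccl7 stood at 2332 and 4232 CPM (0.86, 0.82 to 0.90), in endothelial cells at 111 and 507 CPM (2.20, 1.81 to 2.60), and in Ly6c2 monocytes at 179 and 1587 CPM (3.15, 2.96 to 3.34). With the T cell level of each library subtracted, the Ly6c2 monocyte value was 4.01.

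Ccl2 and Ccl7 tended to be found in the same cells. Among untreated tumor cells at equal depth, 35.2% of those with a Ccl2 UMI also had a Ccl7 UMI, against 21.4% of those without, and in the MSA-2 library the shares were 68.0% and 47.5%. Among untreated macrophages the shares were 77.0% and 46.7%. In T cells of the untreated library, the reference for these transcripts, 33 of 253 cells with and 109 of 860 cells without a Ccl2 UMI had one of Ccl7, shares whose intervals overlap. These cells share a library, so the shares are descriptions.

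**Figure D2:**
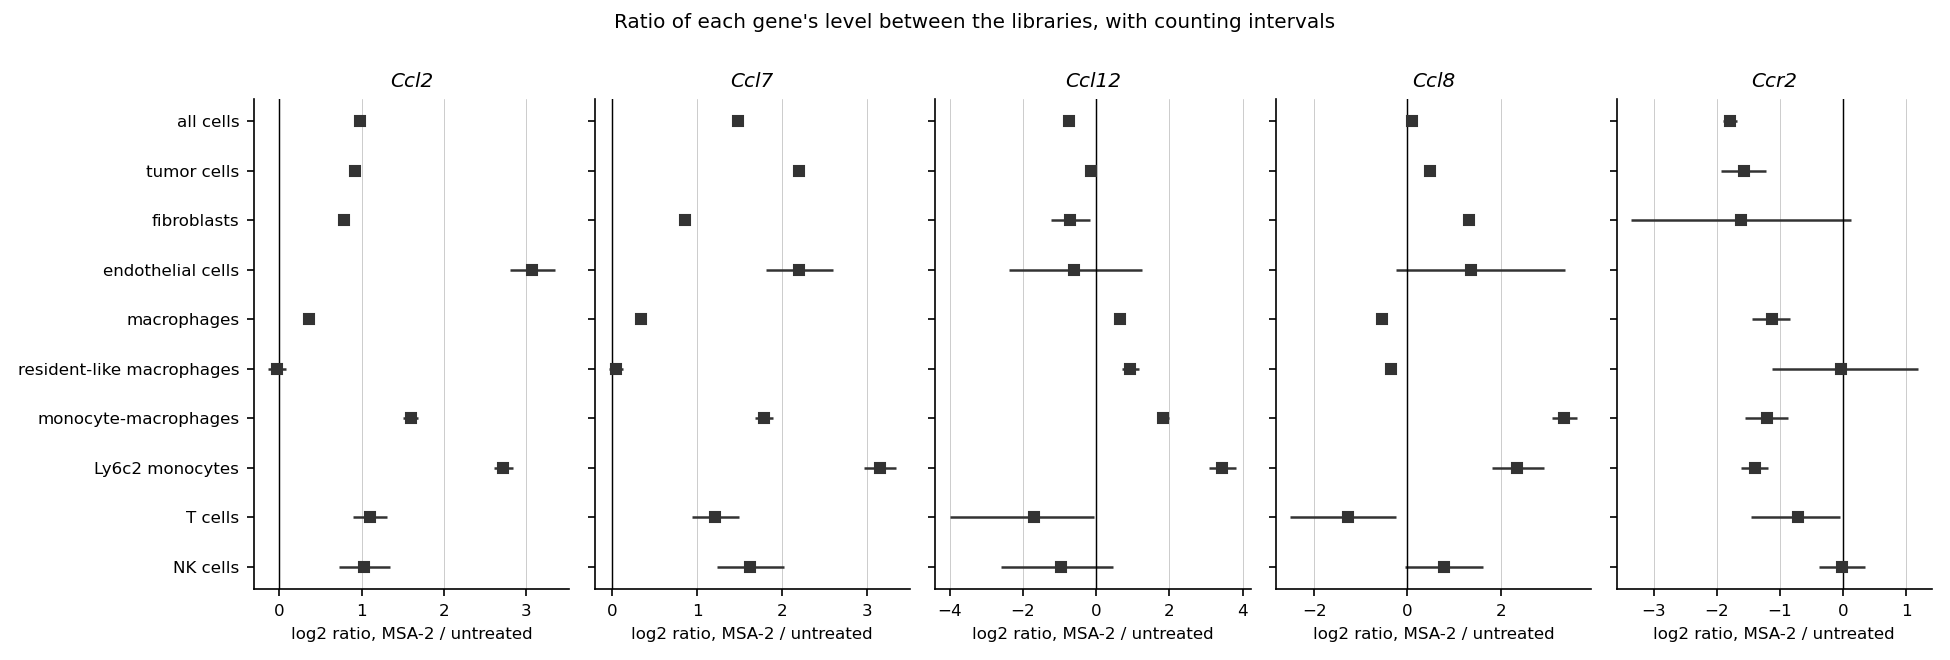
Ratio of the level in the MSA-2 library to that in the untreated library (log2 scale) for each gene, over all cells and in 9 classes, with 95% counting intervals and a line at 0. The ligands lie to the right of 0 in Ly6c2 monocytes and monocyte-macrophages, and Ccr2 lies to the left there. The Ccr2 ratio of endothelial cells is not drawn because the untreated level was 0.

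Tumor cells were not uniform in these ligands. Most tumor clusters, built without the 5 genes, were of 1 library. Untreated tumor clusters of at least 50 cells ranged from 971 to 2461 CPM of Ccl2 and from 217 to 624 CPM of Ccl7. This leaves out a cluster of 75 cells most of whose gated cells were tumor cells but which was led by the skeletal muscle genes Acta1, Mylpf and Myl1, with 679 CPM of Ccl2. MSA-2 tumor clusters ranged from 1453 to 6136 CPM of Ccl2 and from 455 to 3901 CPM of Ccl7. The highest was a cluster of 779 MSA-2 cells led by Il11, Nos2, Galnt13, Lif and Ereg, with 6136 CPM of Ccl2 and 3901 CPM of Ccl7. The largest MSA-2 cluster, 1679 cells led by 1700034P13Rik, Wincr1 and Car6, had 1880 CPM of Ccl2 but 615 CPM of Ccl7, so the ligands did not move in fixed proportion. Of 3 clusters with at least 50 cells in both libraries, one, led by Gm16685 and Gpr39, had 2461 CPM of Ccl2 and 624 CPM of Ccl7 in 108 untreated cells and 2166 and 614 CPM in 1130 MSA-2 cells. Neither ligand was higher with MSA-2 there. The cluster led by Enpp2 and Ptn went the other way, with 1636 CPM of Ccl2 and 456 CPM of Ccl7 in 1042 untreated cells and 2986 and 856 CPM in 78 MSA-2 cells. The cluster led by Gm26917 and Lars2 had 1164 and 438 CPM in 90 untreated cells and 2481 and 455 CPM in 54 MSA-2 cells.

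**Figure D3:**
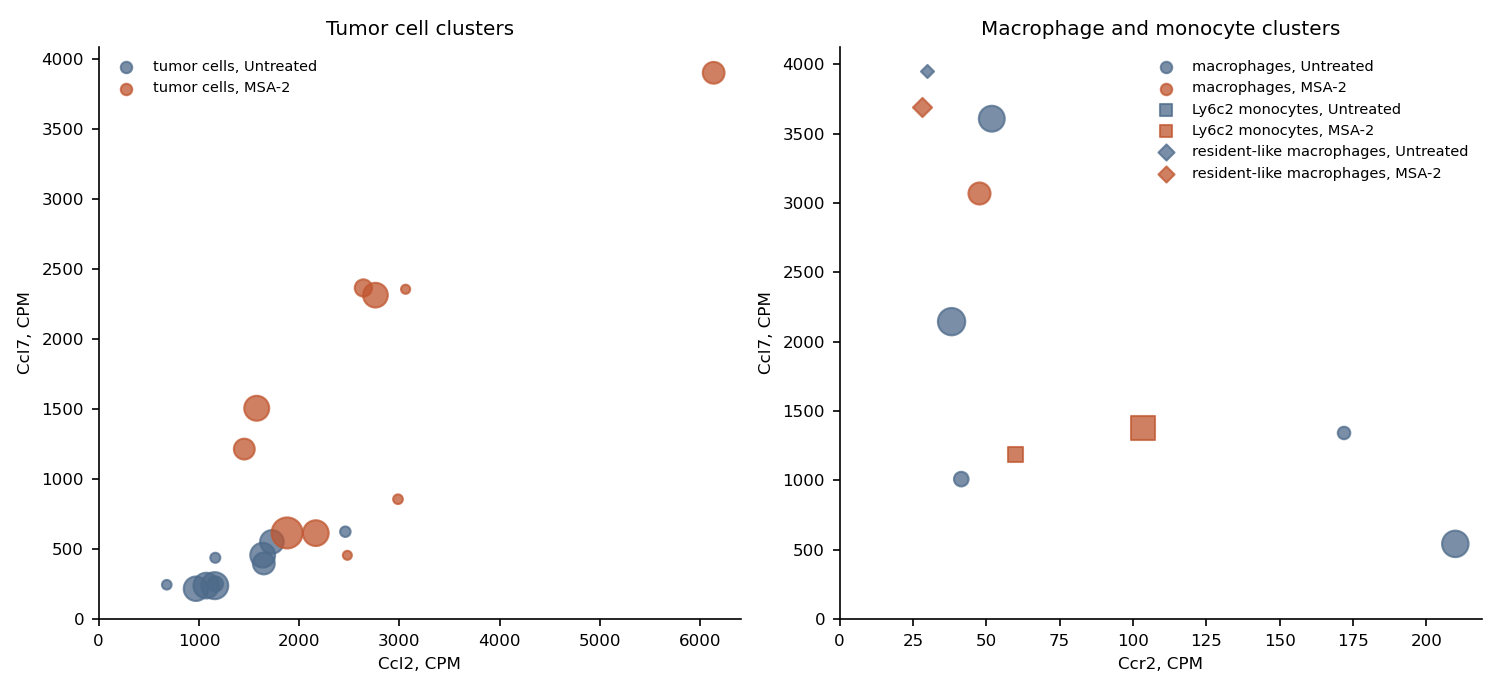
Left, Ccl7 against Ccl2 (CPM) in tumor cell clusters, and right, Ccl7 against Ccr2 (CPM) in macrophage and monocyte clusters, for clusters with at least 50 cells in the library, with area rising with the number of cells. The untreated point at 679 CPM of Ccl2 is the cluster led by muscle genes, and the right panel holds 300 untreated cells of a cluster counted as macrophages but led by Ly6d, Ccr9 and Siglech, genes of plasmacytoid dendritic cells. MSA-2 tumor clusters reach 6136 CPM of Ccl2, and the macrophage cluster with the highest Ccr2, at 210 CPM, has the lowest Ccl7 of its panel.

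Ccl12, a mouse CCR2 ligand, was a macrophage and monocyte transcript in these tumors. Macrophages held 623 CPM in the untreated and 971 CPM in the MSA-2 library (0.64, 0.58 to 0.70), while tumor cells held 9.78 and 8.92 CPM and fibroblasts 16.8 and 10.3 CPM. These tumor cell and fibroblast levels were near the T cell reference of 13.9 CPM in the untreated library. In the MSA-2 library that reference rested on 3 UMIs (4.33 CPM, 0.893 to 12.7), an interval that holds both levels. Ly6c2 monocytes moved from 45.7 to 497 CPM (3.44, 3.08 to 3.83), the largest Ccl12 ratio of the classes. Monocyte-macrophages stood at 293 and 1035 CPM (1.82, 1.66 to 1.98), and resident-like macrophages at 450 and 860 CPM (0.93, 0.69 to 1.18). At equal depth, 4.36% of untreated and 32.8% of MSA-2 Ly6c2 monocytes carried a Ccl12 UMI, against 2.07% of untreated T cells.

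The fall of Ccl12 over all cells therefore ran against its rise in all 4 macrophage and monocyte classes. When the untreated class levels were combined with the class make-up of the MSA-2 library, in shares of UMIs, Ccl12 came to 26.2 CPM, a log2 difference of -1.59 from the untreated value over the classes both libraries held. When the MSA-2 levels were combined with the untreated make-up, it came to 128 CPM, a difference of 0.70. Macrophages held 82.7% of untreated Ccl12 UMIs and 35.8% of those with MSA-2, and Ly6c2 monocytes held 0.444% and 15.9%. For Ccl2 the same calculation gave 0.05 from the make-up and 0.89 from the levels, and for Ccl7 -0.32 and 1.52. For Ccl8 it gave -0.32 and 0.01, and for Ccr2 -0.63 and -0.79, so that for Ccr2 both lay below 0. Make-up within a class was not held fixed here, and its part was not tested. Untreated macrophages lay for 18.7% in the Tgfbi and Ly6i cluster, with 214 CPM of Ccl12, and for 34.3% in the Acsl1 and Cd72 cluster, with 881 CPM. Those with MSA-2 lay for 75.3% in the Ifnb1 and Tnf cluster, with 1050 CPM.

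**Figure D4:**
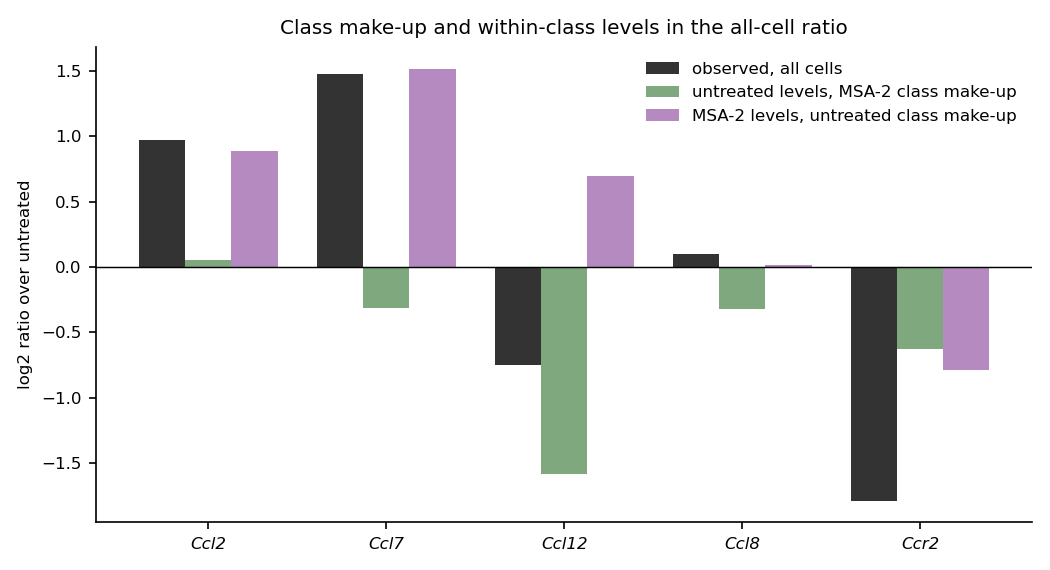
Log2 difference from the untreated library for each gene: as observed over all cells, with untreated class levels in the class make-up of MSA-2, and with MSA-2 levels in the untreated make-up. For Ccl12 the make-up gives -1.59 and the levels 0.70, on opposite sides of 0.

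Ccl8, a chemokine of tissue macrophages and fibroblasts, was concentrated in the resident-like macrophages. They held 5844 CPM in the untreated and 4574 CPM in the MSA-2 library (-0.35, -0.43 to -0.28), which in each library was the highest level of Ccl8 among the 9 classes. At equal depth 78.3% and 81.0% of these cells had a Ccl8 UMI, against 3.68% and 0.752% of T cells. By the 2-fold rule 12.2% of genes were higher and 8.19% lower in resident-like macrophages, and none of the 5 genes was called. Other macrophages stood at 583 and 403 CPM (-0.53, -0.62 to -0.45), and at -1.05 with classes taken from clusters.

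Ccl8 was higher with MSA-2 in fibroblasts and in the monocyte classes. Fibroblasts moved from 347 to 872 CPM (1.33, 1.23 to 1.43), and the share of fibroblasts with a UMI at equal depth was 28.3% and 57.4%. Ccl8 was the single member called in fibroblasts, where 6.68% of genes were higher and 6.61% lower, but with TMM factors Ccl2 and Ccl7 (log2 ratio 1.08) also passed 2-fold. In this class the fibroblast list stood at 47826 and 30978 CPM, the Ly6c2 monocyte list at 4489 and 7002 CPM, the neutrophil list at 58.0 and 575 CPM and the macrophage list at 1008 and 304 CPM, whose part in the Ccl8 ratio was not tested. Monocyte-macrophages moved from 86.7 to 891 CPM (3.36, 3.09 to 3.64), the largest Ccl8 ratio of the 9 classes. These cells lay for 71.4% in the cluster led by Tgfbi and Ly6i in the untreated library, where Ccl8 was 52.9 CPM. With MSA-2 they lay for 50.7% in a cluster led by Ifnb1 and Tnf and for 17.9% in the resident-like cluster led by Folr2, where Ccl8 was 3694 CPM. At equal depth the tenth of MSA-2 monocyte-macrophages with the most Ccl8 held 83.4% of its UMIs, and the median cell held 0. Ly6c2 monocytes stood at 22.1 CPM, below the T cell reference, in the untreated library and at 112 CPM in the MSA-2 library (2.35, 1.81 to 2.93, and 1.29 with the mean of per-cell CPM), yet 4.07% and 5.10% of these cells had a UMI at equal depth, so the added UMIs lay in few cells. Macrophages held 62.9% of untreated Ccl8 UMIs and 6.70% of those with MSA-2, and fibroblasts held 5.36% and 37.0%.

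**Figure D5:**
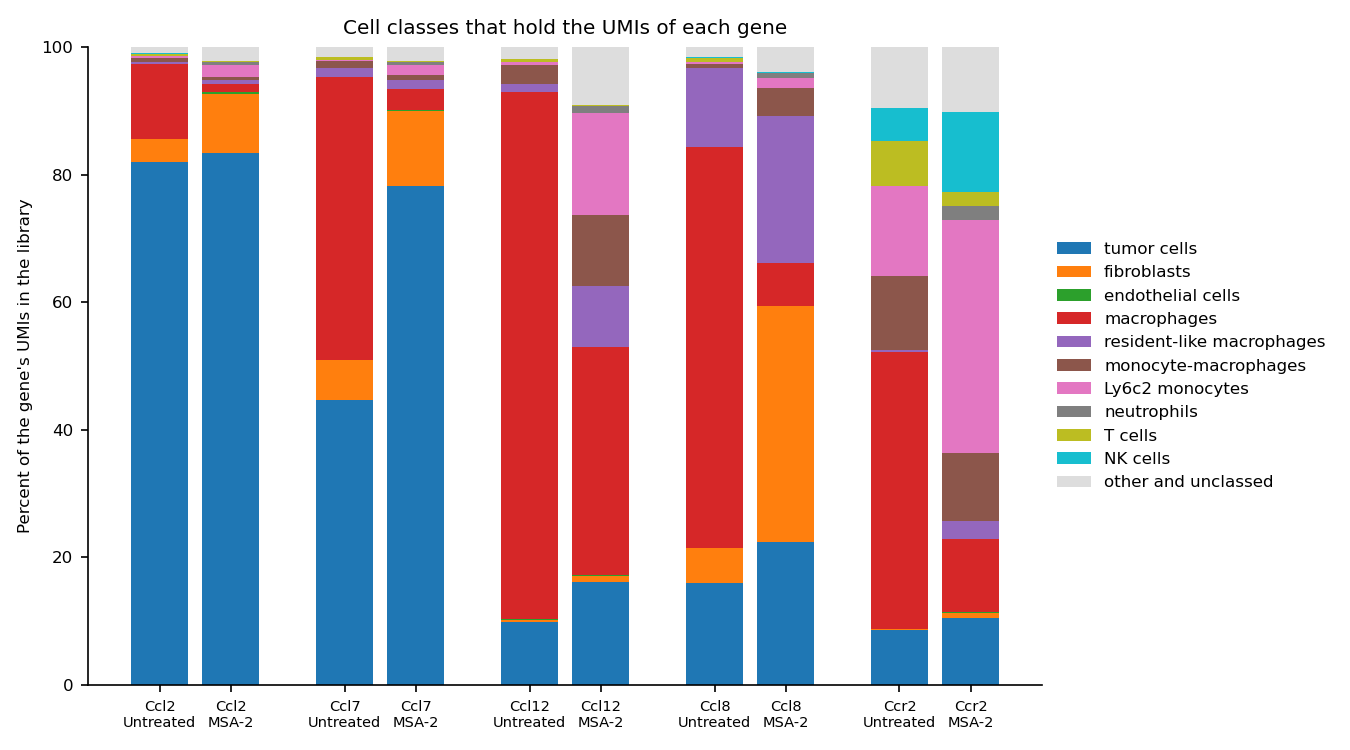
Percent of each gene's UMIs held by each cell class in the untreated and the MSA-2 library. Tumor cells hold over 81% of Ccl2 in both. The macrophage part of each of the 5 genes is smaller in the MSA-2 library.

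Ccr2, the receptor gene, was highest in Ly6c2 monocytes in the untreated library and lower there with MSA-2. The level was 298 CPM in 357 untreated monocytes and 113 CPM in 777 MSA-2 monocytes (-1.40, -1.61 to -1.19). At equal depth 33.4% (28.5 to 38.7%) and 12.4% (10.0 to 15.1%) of these monocytes carried a Ccr2 UMI, and 56.9% and 26.5% without thinning, at median depths of 3571 and 3558 UMIs. Tumor cells, which should lack the receptor, carried one in 0.198% and 0.142% of cells. In this class 12.2% of genes were called higher and 11.6% lower, and all 5 genes were called, with the 4 ligands higher and Ccr2 lower.

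Ccr2 followed the gates from monocyte to macrophage. In untreated tumors it stood at 298 CPM in Ly6c2 monocytes, 226 CPM in monocyte-macrophages, 66.7 CPM in macrophages and 26.6 CPM in resident-like macrophages. In the MSA-2 library the same classes held 113, 97.8, 30.5 and 26.0 CPM. The intervals of Ly6c2 monocytes and monocyte-macrophages overlapped in the MSA-2 library and did not in the untreated one. Macrophages (-1.13, -1.44 to -0.84) and monocyte-macrophages (-1.21, -1.55 to -0.87) both held less Ccr2 with MSA-2, and the interval of resident-like macrophages held 0 (-0.03, -1.13 to 1.18, 10 and 26 UMIs). The clusters differed here too: 18.7% of untreated macrophages and 71.4% of untreated monocyte-macrophages lay in the Tgfbi and Ly6i cluster, where Ccr2 was 210 CPM, while 75.3% and 50.7% of those with MSA-2 lay in the Ifnb1 and Tnf cluster, where it was 47.6 CPM. In macrophages 4.44% of genes were called higher and 3.78% lower, and Ccr2 was the single member called, a call lost with 10 CPM added (-0.92).

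Ccr2 was not lower in every class. NK cells, some of which are known to carry the receptor, stood at 141 CPM in the untreated and 139 CPM in the MSA-2 library (-0.02, -0.39 to 0.34). NK cells held 5.26% of Ccr2 UMIs in the untreated library and 12.5% in the MSA-2 library, where they had the highest Ccr2 level of the 9 classes, with an interval that overlapped that of Ly6c2 monocytes. Foxp3+ T cells, the regulatory subset, held 178 CPM in 73 untreated cells and 0 UMIs in the 7 MSA-2 cells, for which the upper bound of the interval is 147 CPM. CD8 T cells held 60 Ccr2 UMIs in 698 untreated and 4 in 84 MSA-2 cells (-1.37, -3.29 to 0.06). T cells as a whole class were lower, at 47.3 and 28.9 CPM (-0.71, -1.45 to -0.05). Their ratio lay further below 0 with classes taken from clusters. Neutrophils, which were plentiful with MSA-2, had 4.09 CPM of Ccr2 there, against 0.576 CPM in tumor cells.

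Within classes, cells with a Ccr2 UMI were compared with cells without one at equal depth. Of untreated macrophages with a Ccr2 UMI, 54.1% (47.8 to 60.4%) carried a Ccl2 UMI, against 64.8% (63.0 to 66.5%) of those without. In MSA-2 macrophages the shares were 78.6% and 76.5%, with overlapping intervals. In Ly6c2 monocytes of the MSA-2 library the shares were 88.2% and 86.0%, and in those of the untreated library 39.1% and 33.6%, with overlapping intervals in each case. Of the 85 MSA-2 monocytes with a Ccr2 UMI, 75 also held a Ccl2 UMI, where 42.1% of T cells did. Ccr2 as a cluster value was highest, at 210 CPM, in 1201 untreated cells led by Tgfbi, Ly6i and H2-Ab1, the cluster that held 76.2% of untreated Ly6c2 monocytes. A further 16.8% of them lay in the dendritic cell cluster led by Mgl2, Plet1 and Pkib, with 66.4 CPM of Ccr2. MSA-2 Ly6c2 monocytes lay for 78.1% in a different cluster, led by Chil3 and Ifnb1, which held 103 CPM, so the gate compares cells that also differ in other genes. Over the 12 genes of the neutrophil list, Ly6c2 monocytes held 685 CPM in the untreated and 2040 CPM in the MSA-2 library, and over the 10 genes of the macrophage list 3785 and 2699 CPM, whose part in the ratios was not tested.

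Ligand UMIs were also found in T cells and neutrophils. In T cells 6.06% of genes were called higher and 11% lower, and Ccl2 and Ccl7 were called higher and Ccl12 and Ccl8 lower. With 10 CPM added, Ccl12 (-0.74) and Ccl8 (-0.81) were not called. MSA-2 neutrophils held 572 CPM of Ccl2 and 346 CPM of Ccl7, which were 1.56 and 1.59 times the T cell levels, and their Ccl7 to Ccl2 ratio of 0.605 (0.569 to 0.644) lay beside 0.594 in T cells and 0.601 in tumor cells of that library. Within neutrophils 38.6% of cells with and 36.0% of cells without a Ccl2 UMI had a Ccl7 UMI. Over the 10 genes of the macrophage list T cells held 1058 and 235 CPM, lower with MSA-2 as Ccl12 and Ccl8 were. The part of free RNA in these values was not tested.

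Other genes of the same system were read from 4 lists. Of 8 genes that encode other receptors of these ligands or atypical chemokine receptors, 3 had enough UMIs to test in Ly6c2 monocytes. There 1 was higher and none was lower. Of all genes tested 12.2% were higher and 11.6% lower, with a median log2 difference of -0.21. The one called was Ccrl2, a chemerin-binding receptor without classical signaling, at 397 CPM in the untreated and 1190 CPM in the MSA-2 library (1.58, 1.46 to 1.72). Ccr1, a receptor that also binds CCL7, stood in these cells at 175 and 155 CPM (-0.17, -0.40 to 0.06). Ackr1, a decoy receptor of venules and red cells, was at 0.420 and 1.63 CPM over all cells.

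Of 14 genes of receptor signaling, all were tested in Ly6c2 monocytes, none was higher and 1, Arrb1, was lower, with a median of -0.64, a share below the 11.6% of all genes lower in this class. The inhibitory G protein subunit gene Gnai2 stood at 836 and 455 CPM (-0.88, -0.99 to -0.76) and Gnb2 at 425 and 267 CPM (-0.67, -0.83 to -0.51), neither past 2-fold. Gnb1 stood at 311 and 199 CPM, and Gnai3 at 77.8 and 63.3 CPM with an interval that crossed 0 (-0.65 to 0.06).

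Of 11 other CC chemokine genes, 9 were tested in Ly6c2 monocytes, 6 were higher and 3 lower, with a median of 1.36, beside the same 12.2% and 11.6% of all genes. The inflammatory chemokine gene Ccl4 stood at 1519 and 22804 CPM (3.91, 3.85 to 3.97), Ccl5 at 679 and 9379 CPM (3.79, 3.69 to 3.88) and Ccl3 at 297 and 3329 CPM (3.49, 3.35 to 3.63). Ccl6 stood at 386 and 794 CPM (1.04, 0.90 to 1.18). In tumor cells all 11 were tested, 5 were higher and none lower, beside 2.56% and 1.45% of all genes, with Ccl5 at 233 and 893 CPM (1.94, 1.92 to 1.95), below the 2.20 of Ccl7. Ccl4 in tumor cells stood at 147 and 295 CPM. No reference level was set for these other chemokine genes, and the part of free RNA in their tumor cell values was not tested.

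Of 12 genes of monocyte fate, all were tested in Ly6c2 monocytes, 8 were lower and none higher, with a median of -1.21, where 11.6% of all genes tested were lower and 12.2% higher. Klf4, a transcription factor of monocyte differentiation, fell from 639 to 212 CPM (-1.59, -1.74 to -1.44), and Nr4a1, needed for Ly6C-low patrolling monocytes, from 265 to 113 CPM (-1.23, -1.45 to -1.01). Cebpb stood at 1619 and 942 CPM (-0.78, -0.86 to -0.70), and Klf2 was in the other direction, at 482 and 674 CPM (0.48, 0.36 to 0.61). Klf4 was not particular to monocytes, since tumor cells held 1118 and 422 CPM.

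Across 21 sums of 1 class in 1 library, the levels of Ccl2 and Ccl7 on the log2(CPM + 1) scale ran together (Pearson r = 0.94), as did Ccl7 and Ccl8 (0.87), while Ccl2 and Ccr2 did not (-0.29). The points share libraries and classes, so these are descriptions. Among 10067 genes the pattern most like that of Ccl2 was that of Gm17268, the gene that overlaps it on the other strand (0.95), followed by Ccl7, Pdpn, Gm31522 and Nupr1. For Ccl7 it was Gm31522 (0.94), a noncoding RNA gene 25.7 kb away on the other strand, followed by Ccl2, Hmox1, Gm17268 and Dse. Ccl12 was most like Pf4 (0.96), 4930430E12Rik, Tlr8, Kcnk13 and Siglec1. Ccl8 was most like AI427809 (0.97), Rnf150, C4b and Folr2, of which Folr2 is in the gate of the resident-like class. Ccr2 was most like Was (0.92), Ncf4, Aldoc and Gmip.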

How the data were processed

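The deposited files hold raw UMI counts per gene and cell barcode for 1 untreated and 1 MSA-2 library, which the authors made with Cell Ranger (7.0.0 in the submitters' processing notes, 7.0.1 in the file header) on mm10. Depth was 198135335 and 204387165 UMIs over 14386 and 14617 barcodes. Cells needed 500 or more detected genes and no more than 20% of UMIs from mitochondrial genes, and Scrublet calls (705 and 570 cells, 5.02% and 4.08%) were removed with scanpy 1.11.5 (Python 3.11.15). A cell joined a class when the summed CPM of a marker list passed a minimum set from the distribution of that sum. None of the lists held Ccl2, Ccl7, Ccl8, Ccl12 or Ccr2. Leiden clusters were the alternative. Shares of cells with a UMI were taken after thinning to 1500 UMIs. Genes were called at a 2-fold difference on log2(CPM + 1) with at least 10 UMIs over both libraries. No test was possible with 1 library per condition. Named genes were the 5 members, up to 4 genes of highest level per list, and the 5 genes most correlated with each member among those reaching 20 CPM, and some genes these rules name are not reported here. The members and lists were chosen with earlier results of these data known. The alternatives were stricter cell filters, doublets or every barcode kept, cells passing no second gate, cluster classes, TMM factors (edgeR 4.0.16, R 4.3.3), the mean of per-cell CPM, 10 CPM added, no low-count filter and subtraction of the T cell level. The calling step was tested on simulated data.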

Additional observations from a re-analysis of the deposited data

Results flagged for a closer look

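The ratios of Ccl12 and of Ccl8 had opposite signs in different classes, and the difference between the classes was not tested, since each condition had 1 library. The log2 ratio of Ccl12 (MSA-2 over untreated) was 0.64 in macrophages, 0.93 in resident-like macrophages, 1.82 in monocyte-macrophages and 3.44 in Ly6c2 monocytes, against -0.13 in tumor cells and -0.70 in fibroblasts. The log2 ratio of Ccl8 was 0.49 in tumor cells, 1.33 in fibroblasts, 3.36 in monocyte-macrophages and 2.35 in Ly6c2 monocytes, against -0.53 in macrophages and -0.35 in resident-like macrophages. In the untreated library Ccl12 in tumor cells and fibroblasts, and Ccl8 in tumor cells, stood near the level in T cells, where both genes were also lower with MSA-2, so no change of Ccl12 in fibroblasts or tumor cells is shown beyond that reference.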

How the results depend on the processing

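No paired analysis was possible because each condition had 1 library. With a minimum of 1000 genes and a maximum of 10% mitochondrial UMIs per cell, log2 ratios of the whole libraries were 1.01 for Ccl2, 1.51 for Ccl7 and 0.13 for Ccl8. With TMM factors they were 0.96 for Ccl2 and 1.46 for Ccl7 over all cells, 2.12 for Ccl7 in tumor cells, and 3.01 for Ccl2 and -1.10 for Ccr2 in Ly6c2 monocytes, where TMM shifted all genes by 0.30. With the mean of per-cell CPM they were 0.89 for Ccl2, 0.78 for Ccl7, -0.47 for Ccl12 and -1.60 for Ccr2 over all cells, 2.06 for Ccl7 in tumor cells and 2.57 for Ccl2 in Ly6c2 monocytes, and Ccl8 over all cells turned to -0.31. This mean weights each cell alike, and the sum weights it by its UMIs. The mean also took Ccl8 in Ly6c2 monocytes from 2.35 to 1.29 and Ccr2 in tumor cells from -1.58 to -0.76. Cluster classes moved 15 of 34 ratios beyond counting error, by -1.19 to 0.51: Ccr2 in T cells went from -0.71 to -1.90, Ccl8 in macrophages from -0.53 to -1.05, Ccl7 in NK cells from 1.62 to 2.14, and Ccl7 in tumor cells to 2.17. Cells that passed no second gate moved 8 of 44: Ccl8 in NK cells went from 0.78 to -0.16, Ccl8 in monocyte-macrophages from 3.36 to 3.02 and Ccl7 in tumor cells to 2.15, and Ccr2 in fibroblasts went from -1.62 to -0.90 within its counting error. With the T cell level subtracted, an alternative chosen after seeing the data, 10 of 20 moved, by -0.14 to 0.86. In Ly6c2 monocytes Ccl7 went from 3.15 to 4.01, Ccl12 from 3.44 to 3.95 and Ccl2 to 3.20, Ccl8 in monocyte-macrophages went from 3.36 to 3.90, and Ccl7 in tumor cells to 2.47. With 10 CPM added, genes called higher and lower went from 582 and 573 to 212 and 149 over all cells, from 509 and 287 to 164 and 73 in tumor cells, and from 1367 and 1304 to 631 and 405 in Ly6c2 monocytes, where 2125 were higher with no low-count filter. Of 49 ratios, 49 kept their sign with doublets kept and 47 with TMM factors, as did 31 of 34 with cluster classes and 41 of 44 in cells that passed no second gate. Only 0.56% of untreated Ly6c2 monocytes lay in clusters named monocytes, so cluster classes gave no ratio for them. The cause of these shifts was not tested. Classes under 50 cells are limited by their number of cells.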

Other observations

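Several small classes stood out by level. Mast cells had the highest Ccl7 of any class, at 5184 CPM (12 cells, untreated) and 8059 CPM (10 cells, MSA-2), with 2.48 and 2.06 Ccl7 UMIs per Ccl2 UMI. Pericytes held 2247 CPM of Ccl2 (17 cells, untreated) and 8451 CPM (11 cells, MSA-2). Among T cells of the untreated library, the cluster led by Tnfrsf4, Ctla4 and Ikzf2 held 135 CPM of Ccr2, and the cluster led by Cd3g, Ifng and Trbc2 held 2.10 CPM. In MSA-2 Ly6c2 monocytes, 44.1% of cells with a Ccl7 UMI and 17.5% of cells without one had a Ccl12 UMI at equal depth.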
